A study of Mus musculus with 4 samples.

Results

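Cathepsins are the peptidases of lysosomes, and the genes described here are the 10 of them that were chosen by symbol: *Ctsa*, *Ctsb*, *Ctsc*, *Ctsd*, *Ctse*, *Ctsh*, *Ctsk*, *Ctsl*, *Ctss* and *Ctsz*. Every probe carrying 1 of these symbols was taken, which gave 12 of the 26423 probes of the array and 10 of the 19938 genes that were tested. *Ctsb* and *Ctsl* had 2 probes each and the other 8 genes had 1. RNA came from peritoneal macrophages of C57BL/6 mice, treated for 6 h either with PBS as the control (2 samples) or with 100 ng/ml lipopolysaccharide (LPS, 2 samples), and each sample was hybridized to its own single-dye array. The methods describe the wild-type mice as males of 6 to 8 weeks. The labels number the samples of a group as biological replicates but do not say whether they came from separate mice or cultures, so each p-value reflects the spread between these samples alone, which may be technical.

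LPS is a part of the outer membrane of Gram-negative bacteria, and macrophages sense it through Toll-like receptor 4. Cathepsins are made as inactive precursors, tagged with mannose 6-phosphate, carried to endosomes and lysosomes, and activated there by removal of a propeptide. In macrophages they break down ingested microbes and proteins, cut the invariant chain and antigens for presentation on MHC class II, and activate other proteases. By catalytic residue, *Ctsb*, *Ctsc*, *Ctsh*, *Ctsk*, *Ctsl*, *Ctss* and *Ctsz* encode cysteine peptidases, *Ctsd* and *Ctse* encode aspartic peptidases, and *Ctsa* encodes a serine carboxypeptidase.

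None of the 10 cathepsins differed between LPS and PBS past an adjusted p of 0.05 (limma, adjusted by Benjamini-Hochberg over 19938 genes): 0 were higher and 0 were lower. Over all genes 3.22% were higher and 2.32% were lower past the same test. At an unadjusted p under 0.05, 1 cathepsin (*Ctsc*) was on the higher side and 2 (*Ctsa*, *Ctsh*) on the lower side by limma, beside 12% and 13.9% of all genes, which is near the members' own share. The methods' t-test had the same 2 genes on the lower side, beside 7.29% of all genes, and left 0 genes after adjustment. The largest fitted differences, on the log2 scale and as LPS minus PBS, were 1.40 for *Ctsc* and −0.95 for *Ctsa*, and 9 of the 10 genes differed by less than 1. The members' median was −0.11, beside 0.04 over all genes, with 4 genes above 0 and 6 below it.

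Signal on the array was high for most of these genes. All 12 probes were detected on all 4 arrays (detection p under 0.05) and none carried a spot flag. *Ctsb*, *Ctsd*, *Ctsh*, *Ctsl*, *Ctss* and *Ctsz* lay among the brightest 1% of genes (199 genes), of which 13 passed the test. The median size of the log2 difference in that brightest 1% was 0.41, and it was 0.40 over all genes and 0.27 over the 10 cathepsins. Brightness depends on a probe's sequence as well as on the RNA, so signals were compared between arrays only within a probe, and no order of levels between genes is given.

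The upstream sequences of the 2 genes with the largest fitted differences in either direction are shown so that the regions can be read beside their values, with short stretches of *Ctsd* and *Ctss* that hold a motif searched for. The sequences are from RefSeq on GRCm38.p6, read 5′ to 3′ on the strand of the gene, and 7 of the 10 genes had an entry in that promoter table (8 entries, 2 of them start sites of *Ctsa*). *Ctsb*, *Ctse* and *Ctsh* had none. Capitals mark matches on either strand to GAGGAA, the core of the site of the macrophage factor PU.1, in *Ctsc*; to TCACGTGA, the palindrome at the core of the CLEAR element bound by TFEB and its relatives, in *Ctsa* and *Ctsd*; and to GAAANNGAA, the core of the interferon-stimulated response element, in *Ctss*.
Ctsc, 250 bases before the start site, chr7:88277835-88278084, + strand: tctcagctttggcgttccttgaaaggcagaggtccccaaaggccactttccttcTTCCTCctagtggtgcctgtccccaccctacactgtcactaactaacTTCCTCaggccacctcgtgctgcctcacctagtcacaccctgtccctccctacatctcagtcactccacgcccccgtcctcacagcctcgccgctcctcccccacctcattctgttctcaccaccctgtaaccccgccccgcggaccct
Ctsa, 250 bases before the second start site, chr2:164833523-164833772, + strand: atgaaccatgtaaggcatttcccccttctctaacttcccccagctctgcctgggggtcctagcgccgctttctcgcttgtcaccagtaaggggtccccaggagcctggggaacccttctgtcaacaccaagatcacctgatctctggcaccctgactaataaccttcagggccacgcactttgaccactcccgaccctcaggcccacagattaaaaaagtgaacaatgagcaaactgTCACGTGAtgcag
Ctsa, around the second palindrome, chr2:164833766-164833795, + strand: gatgcagatgcTCACGTGAccagagctaca
Ctsd, around the palindrome, chr7:142387908-142387937, − strand: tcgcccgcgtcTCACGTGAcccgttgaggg
Ctss, around the interferon element core, chr3:95526754-95526784, + strand: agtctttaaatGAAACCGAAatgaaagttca

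TCACGTGA was found in 2 of the 8 entries and in 0.974% of all 32851 promoters of 300 bases (250 before the start site and 50 after it). Its first base lay at −13 and 4 from the second start site of *Ctsa*, counting the start site as 0, and at −99 in *Ctsd*. That second start site lies inside the span of *Ctsa*, and the entry of the first start site held 0 matches to the motifs searched for. The shorter CACGTG, the E-box held within that palindrome, was found in 3 of the 8 entries and in 7.15% of all promoters. The 3 entries were the second of *Ctsa*, that of *Ctsd* and, at −236, that of *Ctsl*. The whole *Ctsl* entry lies within the span of the gene given below, so this match is not upstream of that span. GAAANNGAA was found in 1 of the 8 entries, at −21 in *Ctss*, and in 8.56% of all promoters. GAGGAA was found in 3 of the 8 entries, those of *Ctsc*, *Ctsk* and *Ctss*, and in 28.3% of all promoters. These matches describe the letters only, and genes holding the same letters had unlike values: *Ctsa* and *Ctsd* share the palindrome, with fitted log2 differences of −0.95 and −0.10.

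*Ctsc* encodes cathepsin C (dipeptidyl peptidase I), which activates the serine proteases stored in granules of neutrophils, mast cells and cytotoxic lymphocytes. The gene lies on chromosome 7 from 88278024 to 88315861, so the last bases of its upstream sequence above fall inside this span. Its deposited signals were 32940 and 12772 on the PBS arrays against 50684 and 50498 on the LPS arrays. After quantile normalization the log2 signals were 14.79 and 13.69 with PBS against 15.75 and 15.53 with LPS. Both LPS arrays were above both PBS arrays, and the PBS arrays lay further from each other than the LPS arrays did. The fitted log2 difference was 1.40 ± 0.40 (SE, n = 2 and 2; 95% interval 0.37 to 2.43; 2.64-fold), and limma's adjusted p was 0.120. Without PBS replicate 1 the difference was 1.96, and without PBS replicate 2, the dimmer control, it was 0.87. Counted by rank, 1410 and 2945 probes were brighter than that of *Ctsc* on the PBS arrays against 684 and 808 on the LPS arrays, a measure that scaling an array does not move.

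*Ctsa* encodes cathepsin A, also called protective protein, a carboxypeptidase that holds the lysosomal enzymes neuraminidase 1 and beta-galactosidase in a stable complex. The gene lies on chromosome 2 from 164832872 to 164841032. The deposited signals were 5255 and 3673 with PBS against 1367 and 2311 with LPS, and the normalized log2 signals were 12.13 and 11.75 with PBS against 10.90 and 11.07 with LPS. Both LPS arrays were below both PBS arrays. The fitted log2 difference was −0.95 ± 0.24 (SE, n = 2 and 2; 95% interval −1.55 to −0.34; 1.93-fold lower), with an adjusted p of 0.0924 by limma. The number of brighter probes was 6524 and 7545 on the PBS arrays against 9964 and 9456 on the LPS arrays.

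*Ctsh* encodes cathepsin H, an aminopeptidase, on chromosome 9 from 90054267 to 90076095. The normalized log2 signals were 18.14 and 18.07 with PBS against 17.50 and 17.24 with LPS, so the LPS arrays were again below both controls. The log2 difference was −0.74 ± 0.21 (SE, n = 2 and 2; 95% interval −1.29 to −0.19; 1.67-fold lower), with an adjusted p of 0.121 by limma. It was the gene of the brightest 6 that moved furthest in rank, with 48 and 55 brighter probes on the PBS arrays against 126 and 171 on the LPS arrays.

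*Ctsk* encodes cathepsin K, the collagen-cutting enzyme of osteoclasts, and lies on chromosome 3 from 95499210 to 95509387. Its log2 signals were 16.28 and 16.39 with PBS against 15.96 and 15.73 with LPS. The groups did not overlap, and the log2 difference of −0.49 ± 0.21 (SE, n = 2 and 2) had a 95% interval from −1.03 to 0.06 and an adjusted p of 0.229 (limma). *Ctss*, on the same chromosome from 95526786 to 95556405, encodes cathepsin S, which cuts the invariant chain in antigen-presenting cells. Its log2 signals were 18.46 and 18.16 with PBS against 18.35 and 18.38 with LPS. Both LPS values lay between the PBS values, the difference was 0.06 ± 0.22 (SE, n = 2 and 2), and the 95% interval ran from −0.51 to 0.62 (limma, adjusted p = 0.889).

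**Figure D1:**
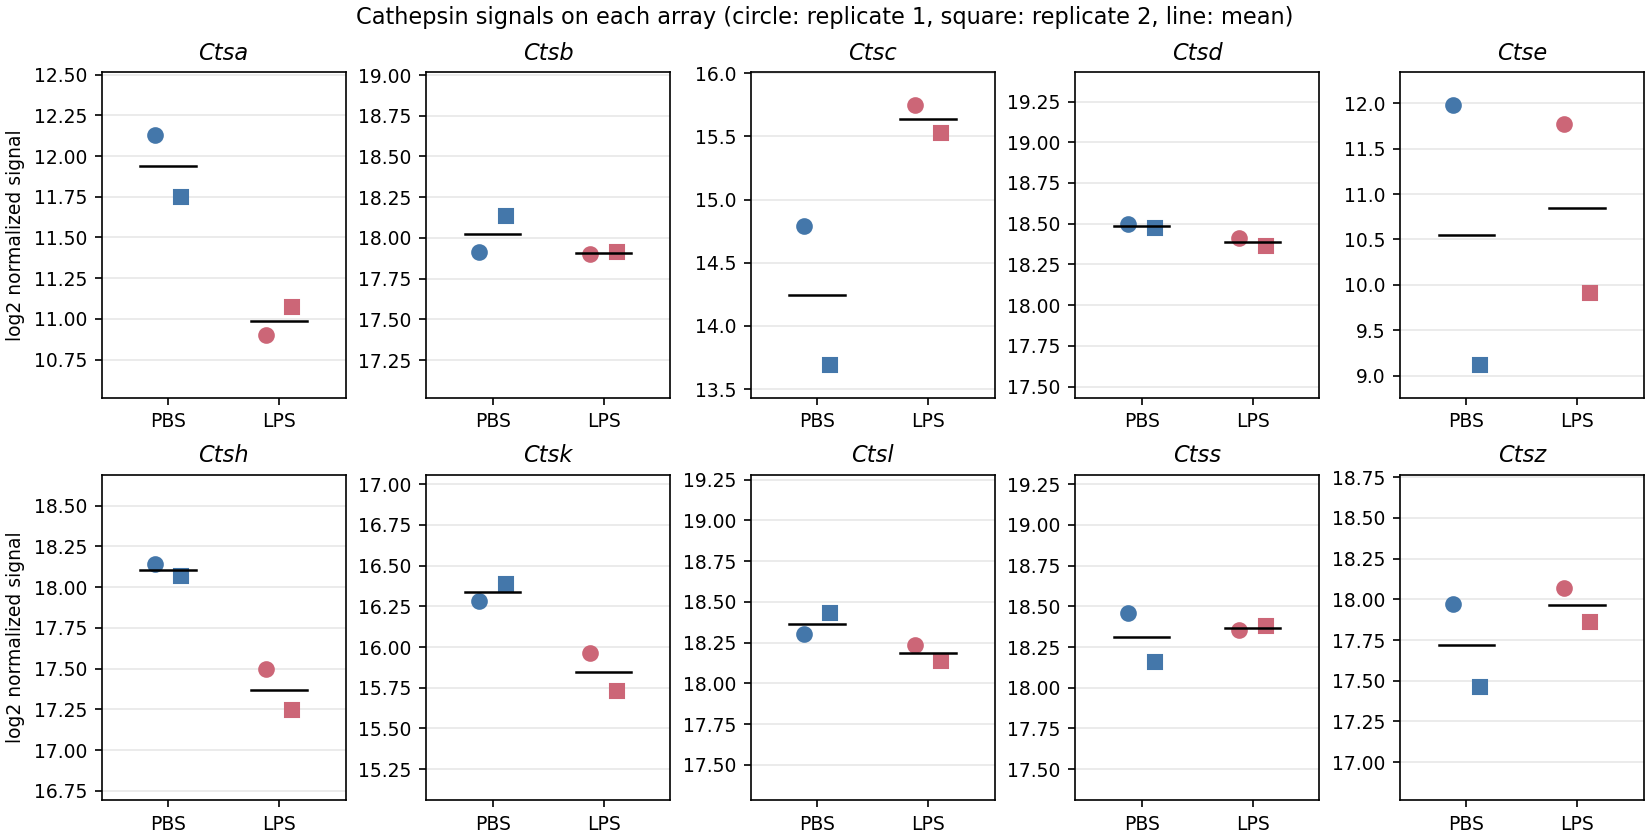
Quantile-normalized log2 signal (y axis) of the 10 cathepsins on the PBS and LPS arrays, each panel spanning at least 2 log2 units with its own axis; circles are replicate 1, squares replicate 2 and lines group means. *Ctsc* lay higher on both LPS arrays, *Ctsa*, *Ctsd*, *Ctsh*, *Ctsk* and *Ctsl* lower, and the groups overlapped for *Ctsb*, *Ctse*, *Ctss* and *Ctsz*.

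Cathepsins B, L and D are the broad-acting endopeptidases of the lysosome, the first a cysteine enzyme that can also release dipeptides from the C terminus of proteins, the next a cysteine enzyme of general protein breakdown, and the last an aspartic enzyme. *Ctsb* lies on chromosome 14 from 63122462 to 63145923. Its brighter probe read 17.91 and 18.14 with PBS against 17.90 and 17.91 with LPS on the log2 scale, with PBS replicate 2 above the other 3 arrays, and differed by −0.12 ± 0.21 (SE, n = 2 and 2; limma, adjusted p = 0.744). The other *Ctsb* probe read 16.68 and 15.98 with PBS against 16.03 and 15.82 with LPS, here with PBS replicate 1 above the others, and differed by −0.40 (limma, adjusted p = 0.451 over all probes). After quantile normalization the controls that stood apart were thus different arrays for the 2 probes of this gene. In the deposited signals of the brighter probe PBS replicate 2 was instead the lowest array (256320 and 233626 with PBS against 251281 and 273674 with LPS).

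*Ctsl* lies on chromosome 13 from 64361890 to 64370772. Its brighter probe read 18.30 and 18.43 with PBS against 18.24 and 18.14 with LPS, a log2 difference of −0.18 ± 0.20 (SE, n = 2 and 2; limma, adjusted p = 0.607). The dimmer probe read 12.73 and 12.74 with PBS against 12.41 and 12.17 with LPS, a difference of −0.44 (limma, adjusted p = 0.275 over all probes). For both probes the LPS arrays were below both PBS arrays. *Ctsd*, on chromosome 7 from 142375910 to 142387827, read 18.50 and 18.47 with PBS against 18.41 and 18.36 with LPS. These arrays did not overlap either, but the difference was only −0.10 ± 0.20 (SE, n = 2 and 2), with a 95% interval from −0.61 to 0.41 and an adjusted p of 0.776 (limma).

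*Ctsz*, on chromosome 2 from 174427494 to 174439039, encodes cathepsin Z, a carboxypeptidase that also binds integrins. Its log2 signals were 17.97 and 17.46 with PBS against 18.07 and 17.86 with LPS. PBS replicate 2 was the lowest array and the groups overlapped, with a difference of 0.25 ± 0.26 (SE, n = 2 and 2), a 95% interval from −0.42 to 0.92 and an adjusted p of 0.575 (limma).

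*Ctse* encodes cathepsin E, an aspartic peptidase of endosomes in immune and epithelial cells, and lies on chromosome 1 from 131638314 to 131675507. It was the member whose replicates differed most. Its deposited signals were 4725 and 629 with PBS against 2565 and 1064 with LPS, and the log2 signals were 11.98 and 9.12 with PBS against 11.77 and 9.91 with LPS. Both replicate 1 arrays were high and both replicate 2 arrays were low, whatever the treatment. The replicates lay 2.87 apart on the log2 scale with PBS, a gap that 0.120% of all genes (24 genes) reached, and 1.86 apart with LPS, a gap that 1.83% reached. The LPS minus PBS difference was 0.29 ± 1.09 (SE, n = 2 and 2; 95% interval −2.48 to 3.07; limma, adjusted p = 0.880). Leaving out PBS replicate 1 gave 1.70, leaving out PBS replicate 2 gave −1.15 and leaving out LPS replicate 1 gave −0.64, so its direction rested on single arrays. Among the 5 listed markers of mesothelium and fibroblasts, *Upk3b* of mesothelium ran the other way in both groups, with log2 signals of 13.12 and 14.87 on the PBS arrays against 12.23 and 14.80 on the LPS arrays. *Msln*, *Krt19* and *Col3a1* were higher on replicate 1 with PBS, as *Ctse* was, and higher on replicate 2 with LPS. The summed signal of the 5 genes, 3 of them detected on all arrays and most of the sum from *Upk3b*, was 13228 and 33384 with PBS against 8434 and 33213 with LPS. Of the defining markers, *Col1a1* was detected on no array, and the part of these cells in the *Ctse* values was not tested.

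**Figure D2:**
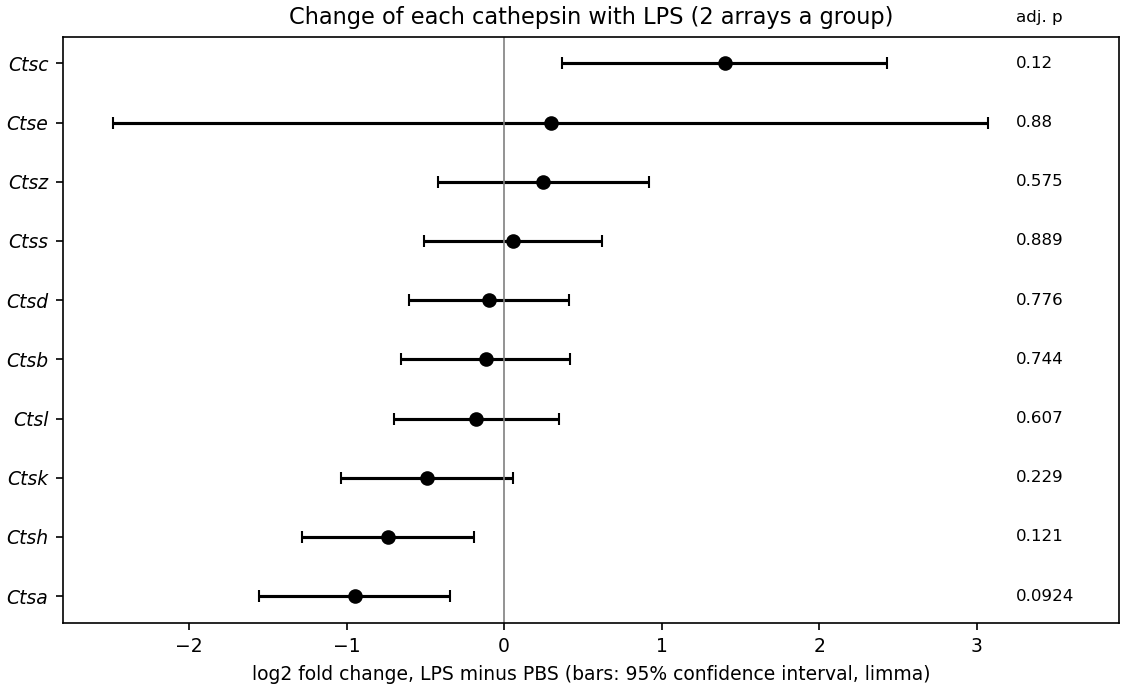
Fitted log2 fold change, LPS minus PBS (x axis), of each cathepsin with its 95% confidence interval from limma (bars) and its adjusted p at the right. The interval of *Ctse* is the widest, from −2.48 to 3.07, and those of *Ctsc*, *Ctsa* and *Ctsh* lie on one side of 0 although no adjusted p is under 0.05.

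Side by side, the LPS arrays lay above both PBS arrays for 1 gene (*Ctsc*), below both for 5 (*Ctsa*, *Ctsd*, *Ctsh*, *Ctsk*, *Ctsl*), and overlapped them for 4. The groups were thus apart for 6 of 10 cathepsins, and for 59.7% of all genes. The standard errors of the members ran from 0.20 to 1.09 on the log2 scale. The fitted differences of *Ctss*, *Ctsb*, *Ctsz* and *Ctse* were smaller than the gap between their PBS arrays. That of *Ctsd* was larger than the SDs of its own arrays (0.02 with PBS, 0.04 with LPS) but smaller than its standard error, which limma draws in part from all genes.

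The direction of the smaller differences depended on how the arrays were scaled. LPS replicate 1 was the dimmest array, with a median signal of 683 against 1026, 1047 and 1054 on the others. With each array scaled to its 75th percentile, with cyclic loess, or in the authors' second table, *Ctsb*, *Ctsd* and *Ctsl* turned positive, 7 of the 10 genes were above 0, and the members' median was 0.40, 0.20 and 0.33, respectively. The median of all genes in these settings was 0.00, 0.01 and −0.07. *Ctsc* stayed above 0 and *Ctsa*, *Ctsh* and *Ctsk* stayed below 0 in each of 12 alternatives. Of those alternatives, the filters and probe rules left the values of these single-probe genes unchanged and could not move a sign. Over the 12 alternatives the differences ran from 0.87 to 1.96 for *Ctsc* and −1.16 to −0.74 for *Ctsa*. They ran from −0.84 to −0.23 for *Ctsh* and −0.58 to −0.09 for *Ctsk*. *Ctss* and *Ctsz* changed sign in 1 alternative each, without PBS replicate 2.

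**Figure D3:**
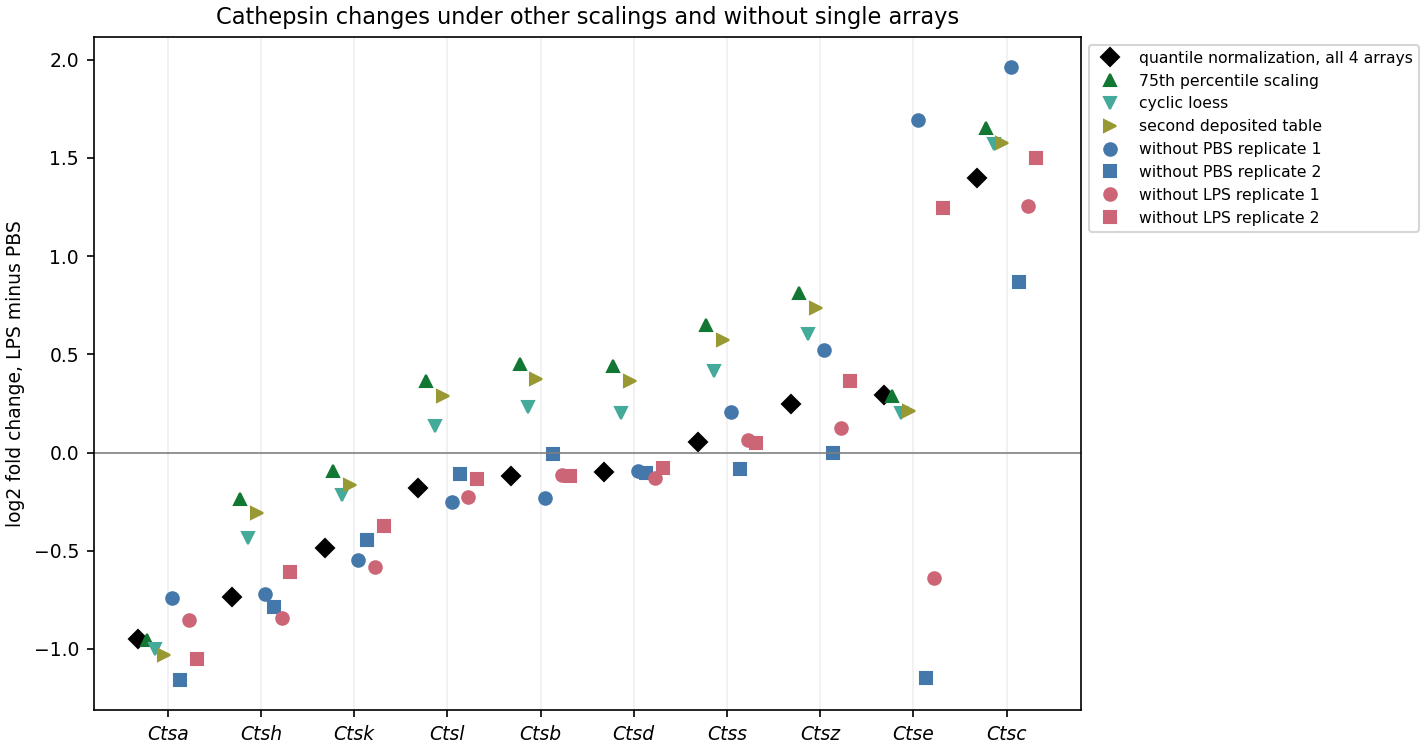
Log2 fold change, LPS minus PBS (y axis), of each cathepsin with quantile normalization (diamonds), other scalings (triangles) and single arrays left out (circles and squares). *Ctsa* and *Ctsc* keep to one side of 0 in every setting drawn, *Ctsb*, *Ctsd* and *Ctsl* cross it with the scaling, and *Ctse* crosses it with the arrays used.

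Ratios of deposited signals within an array, which no scaling of that array by a constant can change, also differed between the groups for some pairs of members. The signal of *Ctsc* over that of *Ctsa* was 6.27 and 3.48 on the PBS arrays against 37.1 and 21.9 on the LPS arrays. *Ctsc* over *Ctsh* was 0.110 and 0.0558 with PBS against 0.279 and 0.300 with LPS, and *Ctsh* over *Ctsd* was 0.786 and 0.733 with PBS against 0.502 and 0.451 with LPS. These 3 ratios did not overlap between the groups. They were built from the members with the largest fitted differences, so they restate those differences and are no separate support. How many pairs of genes over the whole array lie apart in this way was not counted, and single genes did so in 59.7% of cases. *Ctsl* over *Ctsd* was 0.867 and 0.955 with PBS against 0.859 and 0.869 with LPS, and here the LPS ratios overlapped the lower control. A ratio shows unequal change of its members, not which of them changed.

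The other genes of the pathway were counted by lists that held the remaining cathepsins, inhibitors, other lysosomal peptidases, binding partners, sorting factors and transcription factors. Of 12 other cathepsins 11 were measured, and 8 of these, mostly genes of the placental cluster of the mouse, were detected on no array. None was higher or lower past the test (1 of 11 had an unadjusted p under 0.05, on the higher side, beside 12% of all genes), and the largest differences were 0.69 for *Cts6* and −0.53 for *Ctsg*, the granule protease cathepsin G of neutrophils. Their median was 0.22 and turned to −0.20, −0.02 and −0.28 with the 75th percentile, cyclic loess and second table.

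Of the cathepsin inhibitors 7 of 11 were measured, 2 were higher past the test and 0 were lower, beside 3.22% and 2.32% of all genes. The list's median of −0.34 turned to 0.26 without PBS replicate 2 and 0.22 without LPS replicate 1. *Cst7* encodes cystatin F, an inhibitor made by immune cells that reaches endosomes and lysosomes and acts there on cathepsin C and related enzymes. Its log2 signals were 9.79 and 8.56 with PBS, the second not detected, and 13.81 and 12.75 with LPS. Both LPS arrays were far above both controls, and the log2 difference was 4.10 ± 0.54 (SE, n = 2 and 2; limma, adjusted p = 0.0234). The call was lost without PBS replicate 1 (adjusted p = 0.0608, with the undetected array as the sole control), PBS replicate 2 (adjusted p = 0.125) or LPS replicate 1 (adjusted p = 0.0818), all by limma. The signal of *Cst7* over that of *Ctsc* within an array was 0.0287 and 0.0347 with PBS against 0.236 and 0.142 with LPS, so both LPS ratios were above both PBS ratios. This ratio restates the larger fitted difference of *Cst7* and is no separate support. Its second PBS value uses the array on which *Cst7* was not detected.

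*Serpina3g* encodes a serpin that inhibits cysteine cathepsins in mouse lymphocytes and has close relatives in a gene cluster, which a probe may not tell apart. Its deposited signals were 2301 and 4009 with PBS against 137216 and 85089 with LPS. Every LPS value was above every PBS value, with a log2 difference of 5.23 (SE 0.42, n = 2 and 2; limma, adjusted p = 0.00676). Without PBS replicate 2 the difference was 5.79 and the adjusted p by limma was 0.0521. The abundant cytosolic inhibitor *Cstb* (cystatin B) and the secreted *Cst3* (cystatin C) had log2 differences of −0.53 and −0.69, with adjusted p of 0.240 and 0.229 (limma). *Ctla2a* and *Ctla2b*, a pair of alike genes whose products resemble the propeptide of cathepsin L, were both higher on the replicate 2 arrays. *Ctla2b* read 11.11 and 12.76 with PBS against 10.83 and 11.85 with LPS, the reverse of the order of *Ctse*, and both *Ctla2* genes were named after their values were seen.

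Of the other lysosomal peptidases all 7 were measured and detected on every array, and 0 passed the test in either direction (1 of 7 had an unadjusted p under 0.05, on the lower side, beside 13.9% of all genes). The largest differences were −0.87 for *Dpp7*, a dipeptidyl peptidase (adjusted p = 0.151), and −0.73 for *Prcp*, a carboxypeptidase (adjusted p = 0.285, both limma). The list's median was −0.45, and it was −0.22, −0.28 and −0.29 with the other 3 scalings, −0.21 without PBS replicate 1 and −0.70 without PBS replicate 2. All 4 partners of cathepsins A and S were measured with 0 past the test, also at an unadjusted p under 0.05. The largest differences were −0.63 for *Neu1*, the neuraminidase that cathepsin A stabilizes, and −0.47 for *Ifi30*, the lysosomal thiol reductase of antigen processing.

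Of the 9 genes that sort enzymes to lysosomes 0 were higher and 1 was lower past the test, beside 3.22% and 2.32% of all genes. At an unadjusted p under 0.05 by limma 2 were lower, beside 13.9% of all genes. The list's median was −0.06. With 1 array left out the median ran from −0.40 (without PBS replicate 2) to 0.22 (without PBS replicate 1), so it has no settled direction. *Gga2*, an adaptor that carries mannose 6-phosphate receptors out of the Golgi, read 10.91 and 10.90 with PBS and was not detected on either LPS array, where it read 8.17 and 8.63. It was at least 3.34-fold lower with LPS, taking the lowest signal among detected probes of each LPS array, or the probe's own where higher, as the limit (limma, adjusted p = 0.0105). The call was lost without PBS replicate 1 (adjusted p = 0.0990) or PBS replicate 2 (adjusted p = 0.115) and with the second table (adjusted p = 0.0504), all by limma. The sorting receptor *Sort1* (sortilin) had a log2 difference of −2.32 with an adjusted p of 0.0635 (limma), and was named after its values were seen. The brighter of its 2 probes read 16.47 and 15.92 with PBS against 13.22 and 14.52 with LPS. Without LPS replicate 2 the *Sort1* difference was −2.95, which rests on LPS replicate 1 alone. Of the 4 MiT/TFE factors, which switch on lysosomal genes, 0 passed the test, with 0 also at an unadjusted p under 0.05, and the largest differences were −1.19 for *Tfe3* (adjusted p = 0.202) and −0.53 for *Tfeb* (adjusted p = 0.258, both limma). The log2 signals of *Tfe3* were 14.64 and 14.82 with PBS against 12.84 and 14.23 with LPS. Without LPS replicate 2 its log2 difference was −1.88, a value that rests on LPS replicate 1 alone, the dimmest array.

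**Figure D4:**
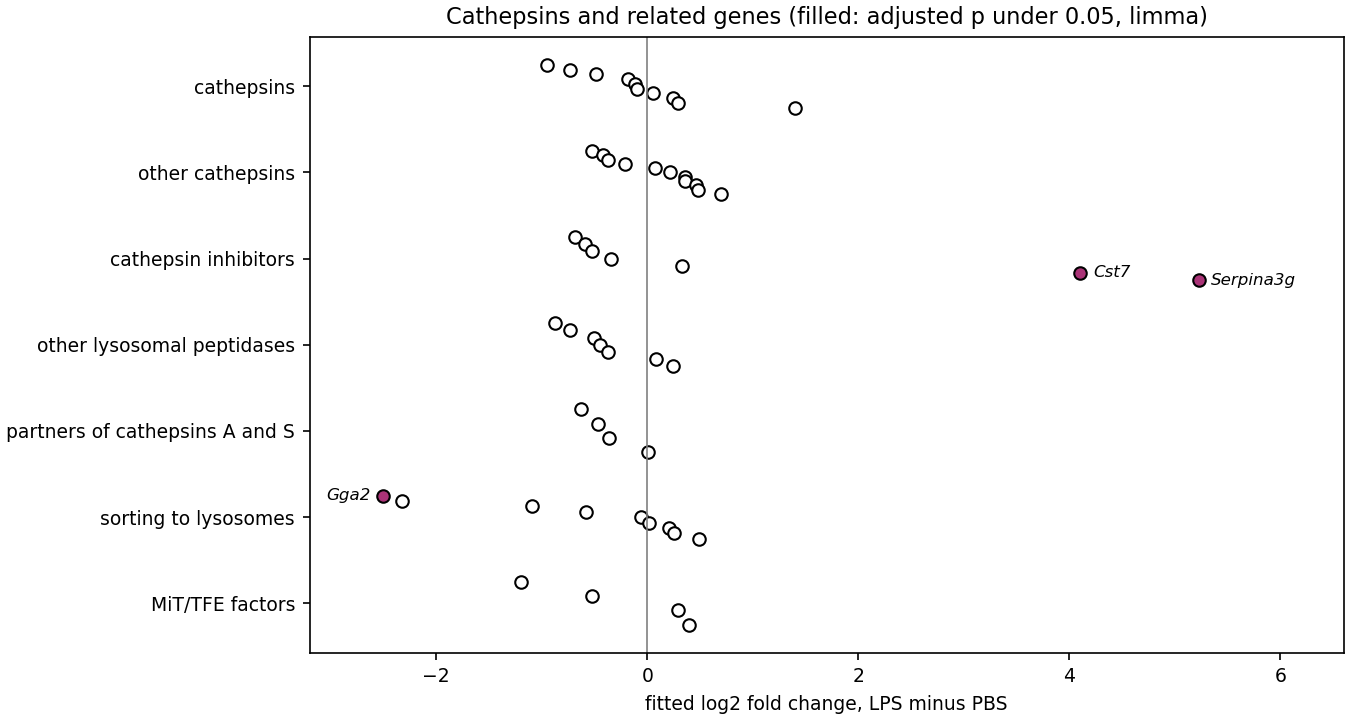
Fitted log2 fold change, LPS minus PBS (x axis), of each measured gene in the lists on the y axis, with filled points for an adjusted p under 0.05 (limma). *Cst7* and *Serpina3g* stand above 4, *Gga2* lies below −2, and none of the 10 cathepsins is filled.

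The RNA came from bulk cells, in which fewer cells of a type and less RNA per cell cannot be told apart. All 7 of the 8 listed macrophage markers that were measured were detected on every array. Their summed signal was 857896 and 694765 with PBS against 972302 and 779781 with LPS. Of these markers 2 were higher past the test and 0 were lower, beside 3.22% and 2.32% of all genes. They were *Cd14* (log2 difference 2.00, adjusted p = 0.0319) and *Fcgr1* (2.33, adjusted p = 0.0348, both limma). By sign 4 markers were above 0 and 3 below it, with *Csf1r* at −1.15 (limma, adjusted p = 0.0839). *Ms4a1* of B cells, *Cd3d* and *Cd4* of T cells, *S100a8* and *Elane* of neutrophils and *Kit* and *Fcer1a* of mast cells were detected on no array, while *Cd79a*, *Cd3e*, *Mpo* and *Tpsb2* were detected on all. By count, 3 of 5 measured B cell markers and 3 of 6 of T and NK cells were detected on all arrays. The same held for 2 of 3 measured eosinophil markers, 1 of 5 of dendritic cells and 2 of 3 of large peritoneal macrophages. The summed signal of mast cell markers, cells that use cathepsin C, was 12514 and 12538 with PBS against 16970 and 15226 with LPS (3 of 5 measured genes detected on all arrays), and that of neutrophil markers was 3089 and 3420 with PBS against 5071 and 4137 with LPS (1 of 5). Single mast cell markers went both ways: 3 had a log2 difference above 0 (*Tpsb2* 0.54) and 2 below it (*Cpa3* −0.90). Of the neutrophil genes 2 were above 0, *Camp* (1.197, detected on 1 PBS array and both LPS arrays) and *Mpo* (0.55). The 3 below 0 were hardly detected: *S100a8* and *Elane* (−0.50) on no array and *S100a9* on 1 PBS array. In either list 0 genes passed the test. At an unadjusted p under 0.05 by limma, 2 neutrophil genes were higher and 0 lower, against 0 and 1 of the mast cell genes. The part of these cells in the values of *Ctsc* was not tested. Replicate arrays correlated over all genes at 0.983 for PBS and at 0.972 for LPS.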

How the data were processed

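Labelled RNA of 4 samples was read on single-dye Mouse OneArray Plus microarrays. The authors deposited linear signal intensity per probe, not scaled between arrays. No source used here names the scanner or the background method, and 60 values at or below 0, all on LPS replicate 1, led to the signals being taken as background-subtracted. The authors also deposited a detection p-value per probe, used to call detection under 0.05, and another column, a spot flag of unstated meaning. The authors' second deposited table held the same signal intensity times 1 constant per array (0.869, 0.972, 1.29 and 0.959 for PBS 1, PBS 2, LPS 1 and LPS 2) and was used as an alternative.

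Signals were brought to log2 after quantile normalization. Symbols came from the deposited table, updated through RefSeq synonyms, for 22815 of 26423 probes with a single symbol. The brightest probe over the 4 arrays stood for a gene, and no probe was filtered. LPS was set against PBS with limma 3.58.1 (lmFit and eBayes, R 4.3.3, statmod 1.5.0) and Benjamini-Hochberg adjustment over 19938 genes, with 2 residual degrees of freedom and a prior of 3.11, so the number of arrays limits precision. The script was checked on simulated data. A probe detected on no array of a group was given a bound. The methods name no test for the arrays. Alternatives were normexp (offset 50), scaling to the 75th percentile, cyclic loess, the second table, filters on dim or flagged probes, other probe rules, a replicate block, a trended variance, the methods' t-test and leaving out each array.

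The members and lists were chosen with earlier results of these data known. All 10 cathepsins were named. Of each other list, up to 4 genes past the test were named or, where none passed, the 2 with the largest difference. Other names were chosen after their values were seen, which holds for *Cstb*, *Cst3* and the marker genes given as examples. Protein sequences were not used here.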

Additional observations from a re-analysis of the deposited data

How the results depend on the processing

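The count of cathepsins higher past the test was 0 under every alternative, and that of cathepsins lower was 0 under each except the methods' unadjusted t-test, which gave 2 (*Ctsa*, *Ctsh*) and 0 after Benjamini-Hochberg. Over the whole array 1104 genes passed, and the number was 529 with the 75th percentile, 436 with the second table, 3719 with the unadjusted t-test, 0 with its adjusted form, and 40 to 1056 with 1 array left out (40 when PBS replicate 2 was left out, 151 for PBS replicate 1 and 372 for LPS replicate 1). Of the genes past the test, 58.2% were higher, against 75.2% with the 75th percentile, 75% with the second table, 67.4% with cyclic loess, and 93.4%, 97.5%, 74.2% and 39.3% without PBS replicate 1, PBS replicate 2, LPS replicate 1 and LPS replicate 2, respectively. Same-numbered arrays deviated together with a correlation of 0.239 over genes. The labels do not say whether the samples of these 2 pairs belong together. With the replicate block 1165 genes passed, 0 of them cathepsins, and the adjusted p of *Ctsc* was 0.0782 (limma), the lowest of its alternatives, which ran to 0.389. An arm with 1 array was assumed to vary like the other. LPS replicate 1 had 55.8% of probes detected, against 61.7% to 63.3% on the other arrays. With 2 arrays a group, changes of the size fitted for most cathepsins could not be told from 0.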

Other observations

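The probe of *Cts8-ps*, a pseudogene of the placental cathepsin cluster that was named after its values were seen, was detected on all 4 arrays. Those of *Cts8* and *Ctsll3*, genes of the same cluster, were detected on none. The probe of *Cts6*, also of this cluster, was detected on all 4, with a log2 difference of 0.69 (limma, adjusted p = 0.180). The deposited signals of *Cts8-ps* were 8104 and 7249 with PBS against 8891 and 9853 with LPS. Both LPS arrays were above both PBS arrays, with a log2 difference of 0.55 and an adjusted p of 0.190 (limma). Whether the *Cts8-ps* probe also binds RNA of another cathepsin gene was not tested.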
